A study of Mus musculus with 800 samples.

Results

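The Dlx family genes described here are Dlx1, Dlx2, Dlx5, Dlx6 and the antisense RNA gene Dlx6os1, 5 of the 32285 genes of a count table of single mouse brain nuclei. They were chosen by symbol, as the rows whose identifier maps to these names. Dlx genes encode homeodomain transcription factors that act in the embryonic ventral forebrain, where they drive the making and migration of GABAergic neurons. They lie in pairs that point towards each other on the chromosome and share enhancers between them, so the genes of a pair are often active in the same cells. After birth a lower activity is known to persist in many cortical interneurons, the inhibitory cells of the cortex, and Dlx5 and Dlx6 also mark the lineage of the striatal projection neurons, the inhibitory output cells of the striatum. Dlx6os1, also known as Evf2, is a long non-coding RNA of the Dlx5 and Dlx6 locus that is known to bind Dlx proteins and to regulate the neighbouring genes.

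The 800 labelled nuclei came from C57Bl/6J mice given 1 of 20 adeno-associated virus vectors with the PHP.eB capsid, which reaches the brain from the blood, and each vector has 40 nuclei. Every vector carried a yellow fluorescent protein on histone H2B, so that labelled nuclei could be sorted, and differed in the promoter or enhancer in front of it. The design text gives a dose of 5e11 vector genomes per mouse in young adulthood and a sort 3 to 4 weeks later, and all 800 labels give the anterior lateral motor cortex. DLX2.0 and hI56i are built on enhancers of Dlx genes, which are known to work in inhibitory neurons of the forebrain, hSyn1 is a neuronal promoter, CMV a general viral promoter, and the other 16 vectors have a code with no target named. All 20 groups thus share the mouse strain, the capsid and the reporter, and no group without a vector is among them. The labels name no animal, sex or exact age, so each vector was 1 sample in every test. Nuclei were the trials only in the exact intervals on shares. Those intervals measure counting error and not the spread between vectors or animals.

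Depth was a median of 260170 counts per nucleus (70 to 901264) and 9467151 to 12192831 per vector. Of the 800 nuclei, 698 had at least 1000 genes detected and were sorted into classes by clustering without the Dlx genes, and 102 fell below. The clusters were named from fixed markers as 273 GABAergic-like nuclei (20 vectors), 161 striatal projection neuron-like (15 vectors), 108 glutamatergic-like (17 vectors), 106 astrocyte-like (13 vectors) and 50 oligodendrocyte-like (10 vectors). The 161 nuclei with striatal genes carry the cortex label as all others do, while the design text says that striatum and primary visual cortex were sorted too, and the region of a single nucleus could not be checked. Their summed level of 9 striatal markers was 9655 CPM (counts of the gene in every 1000000 counts), against 459 CPM in GABAergic-like and 453 CPM in glutamatergic-like nuclei. When each nucleus was classed by its own markers, the same ones that had named the clusters, 582 of 698 (83.4%) kept their class. Own markers placed 47 nuclei as endothelial, 28 as microglia and 30 as oligodendrocyte precursor, names that no cluster had received. The GABA-making enzyme genes Gad1 and Gad2 were at 811 and 408 CPM in GABAergic-like nuclei, 257 and 245 in striatal projection neuron-like and 2.54 and 9.84 in glutamatergic-like nuclei.

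On mm10, Dlx1 (ENSMUSG00000041911) spans 71528113 to 71533981 of chromosome 2 on the plus strand, and Dlx2 (ENSMUSG00000023391) spans 71543408 to 71546754 on the minus strand, with 9426 bases between them. Dlx6 (ENSMUSG00000029754) spans 6863334 to 6868568 of chromosome 6 on the plus strand, and Dlx5 (ENSMUSG00000029755) spans 6877805 to 6882085 on the minus strand, with 9236 bases between them. Dlx6os1 (ENSMUSG00000090063) runs on the minus strand from 6820189 to 6871592, so the whole of Dlx6 lies inside its span, but the annotated exons of both share 0 bases. Dlx1 shares 335 exon bases with the antisense gene Dlx1as, 6.21% of its own and 20.6% of those of Dlx1as. Reads of the 2 strands were not kept apart in these libraries, so counts over shared bases, and over unannotated ones, can belong to either gene of such a pair.

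**Figure D1:**
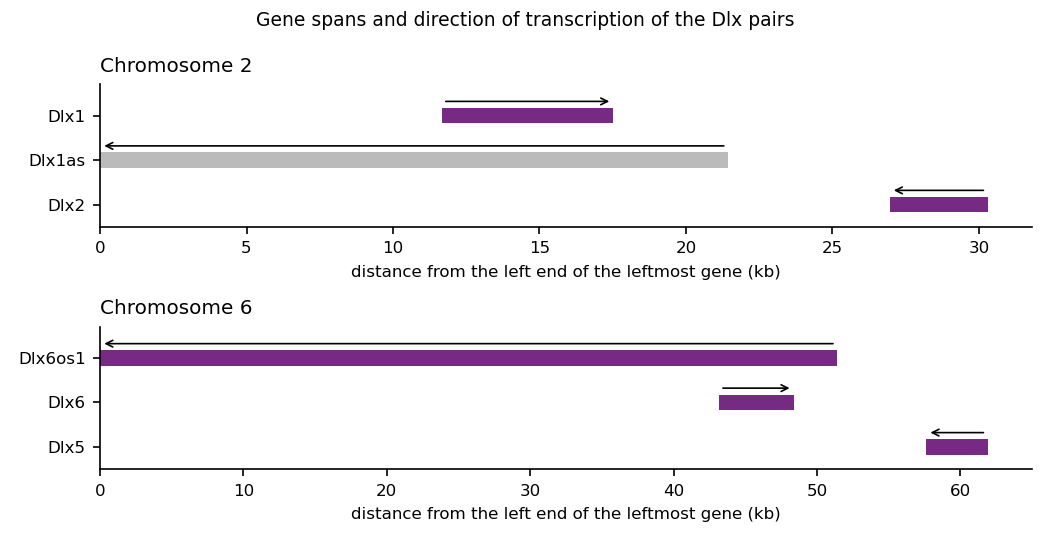
Gene spans of the members (purple) and of Dlx1as (grey) on chromosome 2 and chromosome 6, with the distance in kb from the left end of the leftmost gene on the horizontal axis and arrows for the direction of transcription. Dlx6 lies within Dlx6os1, Dlx1 lies within Dlx1as, and each pair converges across a gap of 9426 or 9236 bases.

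Promoters are shown as a description, and no link between these sequences and the classes of nuclei was tested. RefSeq promoters, 250 bases before to 50 after a start on GRCm38.p6, were matched for 3 of the 5 members: Dlx1, Dlx2 and Dlx6os1, the last with 2 starts. Dlx5 and Dlx6 had no match. The Dlx1 window lies inside the Dlx1 span given above, and both Dlx6os1 windows lie inside that of Dlx6os1. Capitals mark the homeodomain core motifs TAATTA, which is its own reverse complement, and TAATTG with its reverse complement CAATTA, searched on both strands.
Dlx1 promoter, chr2:71529195-71529494, plus strand: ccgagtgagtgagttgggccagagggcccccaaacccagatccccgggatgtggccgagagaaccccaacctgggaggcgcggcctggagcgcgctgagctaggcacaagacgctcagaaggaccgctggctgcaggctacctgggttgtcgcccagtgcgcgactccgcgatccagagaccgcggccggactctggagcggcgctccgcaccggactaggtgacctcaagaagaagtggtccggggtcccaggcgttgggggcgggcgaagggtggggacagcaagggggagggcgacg
Dlx2 promoter, chr2:71546705-71547004, minus strand: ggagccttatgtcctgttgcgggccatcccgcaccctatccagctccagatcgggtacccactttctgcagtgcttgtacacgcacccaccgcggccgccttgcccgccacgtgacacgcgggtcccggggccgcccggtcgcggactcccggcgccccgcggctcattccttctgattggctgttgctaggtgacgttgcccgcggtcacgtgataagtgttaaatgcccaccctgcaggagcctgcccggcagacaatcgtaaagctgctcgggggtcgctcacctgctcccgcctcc
Dlx6os1 promoter, first start, chr6:6869484-6869783, minus strand: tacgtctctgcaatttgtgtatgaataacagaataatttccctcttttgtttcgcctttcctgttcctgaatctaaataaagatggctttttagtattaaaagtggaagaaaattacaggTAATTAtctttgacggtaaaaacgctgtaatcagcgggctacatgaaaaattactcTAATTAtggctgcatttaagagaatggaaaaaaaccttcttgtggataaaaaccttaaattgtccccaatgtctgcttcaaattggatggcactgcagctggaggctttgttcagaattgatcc
Dlx6os1 promoter, second start, chr6:6861634-6861933, minus strand: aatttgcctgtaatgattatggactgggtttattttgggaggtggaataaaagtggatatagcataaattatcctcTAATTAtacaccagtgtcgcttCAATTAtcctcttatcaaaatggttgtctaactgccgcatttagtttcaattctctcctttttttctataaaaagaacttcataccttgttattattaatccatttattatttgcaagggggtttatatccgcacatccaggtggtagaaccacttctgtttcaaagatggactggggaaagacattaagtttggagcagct
TAATTA was in both Dlx6os1 promoters and in 5.29% of the 32851 promoters of the same length, and CAATTA was in the second of them, where 8.0% of promoters held either form of that motif. Neither was found in the Dlx1 or Dlx2 window, which says only that these letters are not there. The Dlx1 and Dlx2 promoters held 27 and 29 CpG dinucleotides and were 69.3% and 66.3% G or C, whereas those of Dlx6os1 held 5 and 3 CpG and were 35.7% and 35.3% G or C. The median over all promoters was 7 CpG.

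Over all 800 nuclei, Dlx6 had a count in 212, Dlx6os1 in 188, Dlx1 in 109, Dlx5 in 77 and Dlx2 in 28. At least 1 of the 5 was found in 337 nuclei (42.1%, exact Clopper-Pearson 95% interval 38.7 to 45.6%), and 3 nuclei held all 5. Per class, 229 of 273 GABAergic-like nuclei held at least 1 member (83.9%, 79.0 to 88.0%), as did 94 of 161 striatal projection neuron-like nuclei (58.4%, 50.4 to 66.1%). Only 5 of 108 glutamatergic-like, 5 of 106 astrocyte-like and 1 of 50 oligodendrocyte-like nuclei did. Shares and levels carry intervals for counting error only, since nuclei of a vector may share an animal and SMART-Seq v4 reads are not tagged by molecule. At equal depth, with each nucleus thinned to 150000 counts, the Dlx1 share of GABAergic-like nuclei was 36.5% (95 of 260) against 37% unthinned, and the Dlx6os1 share was 52.3% against 57.5%.

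Dlx1, which is needed for the upkeep of some interneurons after birth, was detected in 101 of 273 GABAergic-like nuclei (37%, 31.3 to 43.0%), where its summed level was 86.0 CPM (83.9 to 88.1). In striatal projection neuron-like nuclei it was found in 2 of 161 (1.24%, 0.15 to 4.42%) at 3.26 CPM, and in glutamatergic-like nuclei in 2 of 108 at 2.86 CPM. Dlx2, its pair gene and an early factor of GABAergic fate, was detected in 23 GABAergic-like nuclei (8.42%, 5.42 to 12.4%) at 15.6 CPM, and in 3 striatal projection neuron-like nuclei at 2.25 CPM. It had 0 counts in the 108 glutamatergic-like nuclei, which allows up to 0.106 CPM at 3 counts. Both genes of the chromosome 2 pair were thus seen mainly in GABAergic-like nuclei.

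The genes of the chromosome 6 pair were seen in both inhibitory classes. Dlx5, a factor downstream of Dlx1 and Dlx2 in the embryo, was detected in 50 of 273 GABAergic-like nuclei (18.3%, 13.9 to 23.4%) at 33.6 CPM and in 23 of 161 striatal projection neuron-like nuclei (14.3%, 9.28 to 20.7%) at 22.8 CPM. Dlx6, its neighbour, was in 131 GABAergic-like nuclei (48.0%, 41.9 to 54.1%) at 34.4 CPM and in 74 striatal projection neuron-like nuclei (46.0%, 38.1 to 54.0%) at 44.1 CPM. Glutamatergic-like nuclei held Dlx5 in 0 and Dlx6 in 2 of 108. Dlx6os1 followed neither pattern fully, with 157 GABAergic-like nuclei (57.5%, 51.4 to 63.4%) at 188 CPM and 24 striatal projection neuron-like nuclei (14.9%, 9.79 to 21.4%) at 30.9 CPM.

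**Figure D2:**
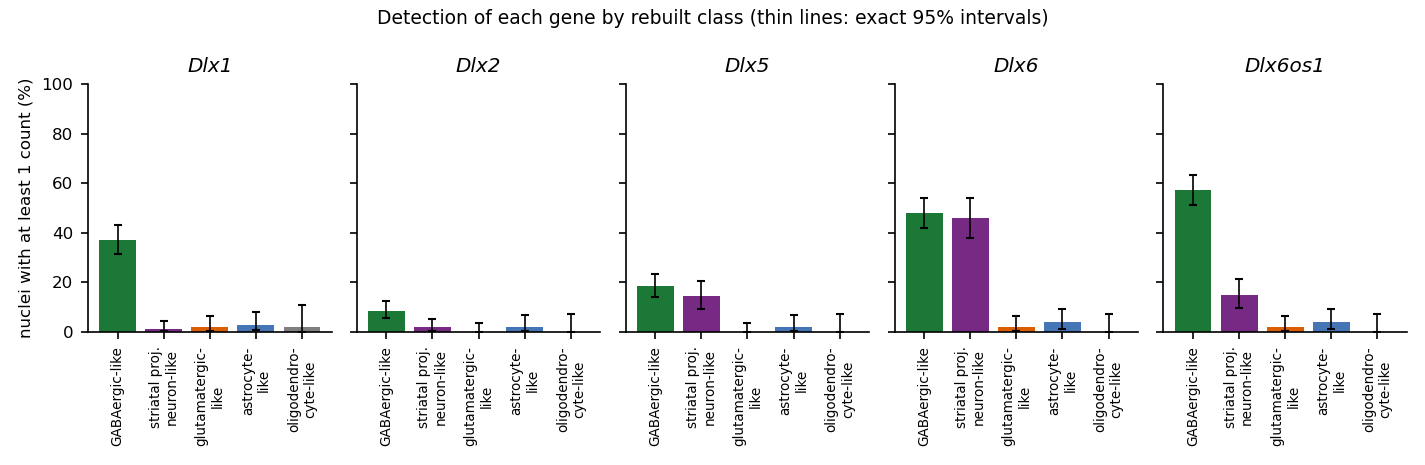
Percent of nuclei with at least 1 count (vertical axis) of each member, by class, with exact 95% intervals as thin lines. Dlx6 was detected in 48.0% of GABAergic-like and 46.0% of striatal projection neuron-like nuclei, whereas Dlx1 was detected in 37% and 1.24%.

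Full-length reads grow with transcript length, so genes were compared only per kilobase of exon. Whether reads in introns were counted was not given in the sources used here. Dlx6os1 has 5173 exon bases in a far longer span, so its place in the order depends on that. On that scale Dlx6os1 was the highest member in GABAergic-like nuclei, at a level of 36.4 CPM per kilobase, followed by Dlx1 (15.9), Dlx5 (14.8), Dlx6 (14.5) and Dlx2 (5.46). In striatal projection neuron-like nuclei the order was Dlx6 (18.6), Dlx5 (10.1), Dlx6os1 (5.97), Dlx2 (0.789) and Dlx1 (0.605). Among GABAergic-like nuclei with a count, the median level of a nucleus was 71.9 CPM per kilobase for Dlx5, 48.2 for Dlx2, 46.2 for Dlx6os1, 31.8 for Dlx1 and 19.9 for Dlx6. Dlx6 thus combined the second highest share of GABAergic-like nuclei with the lowest level per kilobase in positive nuclei. Requiring at least 5 counts lowered its share from 48.0% to 37.7% and that of Dlx5 only from 18.3% to 17.9%.

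The rest of the family was close to absent, apart from Dlx1as. Dlx3 was found in 1 nucleus, a glutamatergic-like one with 42 counts, and Dlx4 in 1 nucleus, a striatal projection neuron-like one with 77 counts. Dlx1as, antisense to Dlx1, was in 72 GABAergic-like nuclei (26.4%) at 29.3 CPM and in 8 striatal projection neuron-like nuclei (4.97%) at 1.80 CPM. In glutamatergic-like nuclei it was in 7 of 108 (6.48%) at 3.42 CPM, where Dlx1 was in 2 of 108.

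The 11 nuclei of the other classes that held a member were looked at one by one. Of the 5 astrocyte-like ones, 4 held at least 3 members and also Gad1 or Gad2 counts, and 3 of these 4 lost the astrocyte name at a finer clustering. The fifth, under AiE0390m, held 165 Dlx1 counts with 0 Gad1 and 0 Gad2 counts. The 1 oligodendrocyte-like nucleus, under AiE0410m, held 199 Dlx1 counts and no other member. Of the 5 glutamatergic-like ones, the hI56i nucleus with title number 26 held 57 Dlx1 and 240 Dlx6os1 counts beside 236 Gad2 and 0 Slc17a7 counts, Slc17a7 being the vesicular glutamate transporter gene. The other 4 had 0 Gad1 and 0 Gad2 counts, Slc17a7 counts from 3 to 582, and between 2 and 24 counts of 1 member each. Whether such nuclei were mixed with RNA of other nuclei was not tested.

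Which members separate interneuron-type from excitatory nuclei was asked within vectors, in 12 vectors, each with 3 or more nuclei in either class, on counts summed per vector and class. Dlx1 was at 19.8 to 168 CPM (median 75.9) in the GABAergic-like sums and at 0 in 10 of 12 glutamatergic-like sums, with 3.5 CPM in hSyn1 and 47.6 CPM in hI56i. Its mean was 77.5 CPM ± 47.4 (SD, n = 12 vectors) against 4.26 ± 13.7, and it was higher in GABAergic-like nuclei in 12 of 12 vectors. Dlx6 was at 6.35 to 73.9 CPM (median 33.3) against 0 in 10 of 12 sums, 0.4 CPM in CMV and 4.69 CPM in AiE0401h, and its 2 groups did not overlap. Dlx6os1 was at 35.3 to 429 CPM (median 146) against 0 in 10 of 12 sums, 2.6 CPM in hSyn1 and 201 CPM in hI56i. Both were higher in GABAergic-like nuclei in 12 of 12 vectors, the groups overlapped for Dlx1 and Dlx6os1 through hI56i, and its Dlx6os1 value came from the single Gad2-positive nucleus described above.

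By edgeR's quasi-likelihood test with the vector as a block and Benjamini-Hochberg adjustment, the log2 fold change was 8.81 for Dlx1 (SE 1.61, adjusted p = 0.00123), 8.10 for Dlx6 (SE 1.44, adjusted p = 0.000947) and 9.60 for Dlx6os1 (SE 1.31, adjusted p = 3.11e-05). These 3 of 3 members tested were called higher in GABAergic-like nuclei, a direction in which 1.69% of 8943 genes were called (1.48% were lower, 3.16% either way). The filter on low counts kept 3 of the 5 members, and they pass it mostly through their GABAergic-like sums, so the count is a description. With 10 of 12 glutamatergic-like sums at 0, the fitted fold changes depend on edgeR's prior count and give the direction better than the size. Dlx2 and Dlx5 were not tested there. Their values were 15.6 CPM ± 19 and 48.0 CPM ± 59.7 in GABAergic-like sums against 0 in all 12 glutamatergic-like ones, higher in 8 and 10 vectors and tied at 0 in the others. An exact two-sided sign-flip permutation test over vectors of the CPM difference gave p = 0.000488 for Dlx1, Dlx6 and Dlx6os1, the smallest that 12 vectors allow, 0.00195 for Dlx5 and 0.00781 for Dlx2, unadjusted over the 15 such tests of 5 members in 3 comparisons of classes. With 1 sample per vector, these p-values measure the spread between vectors, and a sum cannot tell fewer nuclei with a gene from less RNA per nucleus. For Dlx2 and Dlx5, with every glutamatergic-like sum at 0, the permutation p depends only on how many vectors had a GABAergic-like count. A rare gene is more easily seen in more nuclei, and most vectors held more GABAergic-like ones, such as 29 against 4 in AiE0452h. CMV, hSyn1 and hI56i held fewer. When every run of 8 title numbers that included striatal-type nuclei was dropped, 5 vectors were left and none of the 4 members tested was called (edgeR adjusted p = 0.203 for Dlx6os1, 0.584 for Dlx5, 0.659 for Dlx6 and 0.713 for Dlx1), with log2 fold changes of 9.81, 10.34, 8.22 and 8.79. Without the vector block the log2 fold change was 3.98 for Dlx1 (edgeR adjusted p = 0.0622) and 3.23 for Dlx6os1 (0.137), which ended their calls, and 5.82 for Dlx6 (0.00159). With a minimum of 2000 genes (6 vectors) the calls of Dlx1 (edgeR adjusted p = 0.0969) and Dlx6 (0.174) were lost and that of Dlx6os1 was not (0.00520), and in S40326 alone (7 vectors) that of Dlx6 was lost (0.0765).

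The 2 inhibitory classes were compared in 12 vectors in the same way. Dlx1 was at 19.4 to 168 CPM (median 61.5) in GABAergic-like sums and at 0 in 10 of 12 striatal projection neuron-like sums, with 20.9 CPM in AiE0387m and 27.3 CPM in AiE0401h. The log2 fold change was 8.89 (SE 1.57, edgeR adjusted p = 0.000567), with 12 of 12 vectors higher. Dlx6os1 was at 70.4 to 429 CPM (median 191) against 0 to 188 CPM (median 30.7), a log2 fold change of 3.01 (SE 0.77, edgeR adjusted p = 0.0142), with 11 of 12 vectors higher and overlapping groups. The exception was AiE0401h, with 128 CPM in 24 GABAergic-like and 188 CPM in 4 striatal projection neuron-like nuclei. Dlx2 was not past the filter, and stood at 18 CPM ± 18.5 against 0.390 ± 1.26, higher in 8 vectors and tied at 0 in 4 (exact sign-flip permutation p = 0.00781).

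Dlx5 and Dlx6 did not follow. Dlx6 was at 36 CPM ± 13 (SD, n = 12 vectors; 7.72 to 53.5) in GABAergic-like and 44.1 ± 19.4 (7.85 to 76.1) in striatal projection neuron-like sums, higher in the latter in 8 of 12 vectors. Its log2 fold change was -0.27 (SE 0.78, edgeR adjusted p = 0.908), and its sign turned with library series S40326 alone (0.06). Dlx5 was at 33.7 CPM ± 33 (0 to 126) against 24.1 ± 19.6 (0 to 54.9), with 5 vectors higher in one class and 7 in the other, and a log2 fold change of 0.15 (SE 1.51, edgeR adjusted p = 0.975) that lay between -0.49 and 0.93 over the alternatives. Such p-values do not show equal levels, and the standard error of Dlx5 leaves a wide range. In all, 2 of 4 members tested were called higher in GABAergic-like nuclei, beside 5.34% of 9210 genes in that direction, 3.19% in the other and 8.53% in all. Dlx1as rose with Dlx1, from 3.47 CPM ± 7.57 to 20.9 ± 15.6, higher in 12 of 12 vectors (log2 fold change 4.55, SE 1.21, edgeR adjusted p = 0.0184). Dlx1 shares 20.6% of the Dlx1as exon bases and strands were not kept apart, so part of these counts can be Dlx1 reads. Both calls of members were kept when each of the 12 vectors was left out in turn, but the call of Dlx6os1 was lost in series S40326 alone (3.31, edgeR adjusted p = 0.0657) and with a minimum of 2000 genes (2.39, 0.143).

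**Figure D3:**
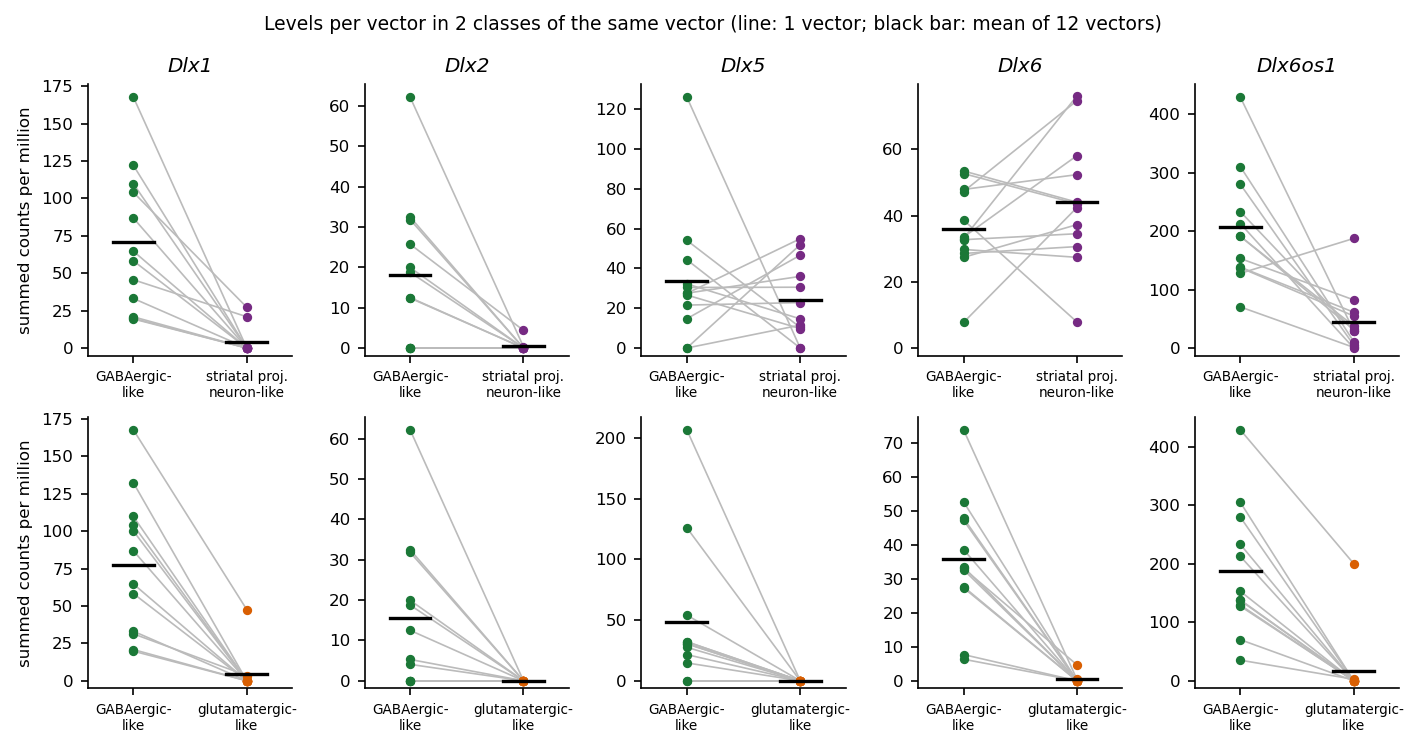
Summed CPM (vertical axes, linear) of each member in 2 classes of the same vector, GABAergic-like beside striatal projection neuron-like (top) and glutamatergic-like nuclei (bottom), 12 vectors each. Each grey line joins the 2 sums of 1 vector and black bars are means: Dlx6 lines run both ways in the top row and all fall in the bottom row.

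Striatal projection neuron-like and glutamatergic-like nuclei were compared in 9 vectors. Dlx6, the only member past the filter, was at 7.85 to 76.1 CPM (median 43.6) against 0 in 8 of 9 sums and 4.69 CPM in AiE0401h. The groups did not overlap, and the log2 fold change was 8.48 (SE 1.78, edgeR adjusted p = 0.00735), higher in 9 of 9 vectors, in a direction in which 1.66% of 7595 genes were called, with 1.42% in the other and 3.08% in all. Its call was lost with at least 5 nuclei per sum (6 vectors, 9.53, edgeR adjusted p = 0.162) and with a minimum of 2000 genes (5 vectors, 7.70, 0.348), and Dlx6 did not pass the filter with classes by own markers, with thinned counts or in series S40326 alone. Dlx6 passed the filter through its striatal projection neuron-like sums, so the call is a description, and with 8 of 9 sums at 0 the size of the fold change depends on the prior count. Dlx5 was at 0 to 51.9 CPM (median 22.8) against 0 in all 9 glutamatergic-like sums, higher in 8 of 9 (exact sign-flip permutation p = 0.00781, where 9 vectors allow 0.00391). With those sums at 0, this p depends only on how many vectors had a striatal projection neuron-like count of Dlx5. Dlx6os1 was higher in 7 of 9 vectors, at 50.2 CPM ± 59.0 against 22.3 ± 66.8 (exact sign-flip permutation p = 0.398), the second mean resting on the hI56i sum alone. Dlx1 was at 0 in 8 of 9 sums of either class, and Dlx2 at 0 in 8 of 9 and 9 of 9.

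Striatal projection neurons fall into cells with the dopamine receptor gene Drd1 or Drd2. Among these nuclei, 82 had counts of Drd1 alone and 51 of Drd2 alone, and Dlx6 was detected in 45 of the former (54.9%, 43.5 to 65.9%) and 18 of the latter (35.3%, 22.4 to 49.9%). In the 7 vectors with enough of both, Dlx6 was at 63.7 CPM ± 31.3 against 23.9 ± 24.1, higher with Drd1 in 6 of 7, and an exact sign-flip permutation test gave p = 0.109. Dlx6os1 was at 35 CPM ± 33.6 against 7.94 ± 13.4 (exact permutation p = 0.0938), and Dlx5 at 22 ± 33.5 against 45.4 ± 38.6 (exact permutation p = 0.344). None of these differences passed, though 7 vectors can reach 0.0156. This split was made after the data were seen.

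The GABAergic-like nuclei fell into 5 clusters, which are given by number because only some met the rule for a subclass name. Cluster 3 (97 nuclei) was led by Pvalb, cluster 4 (82) by Lama4 with Sst at 3386 CPM, and cluster 6 (43) by Sfta3-ps and Lhx8. Cluster 7 (27) was led by Vip, which only 7 of its nuclei held, while 15 held Lamp5, at 579 CPM. Cluster 8 (24) was led by Nos1 and Sst, with 4 of the 6 GABAergic markers detected. As clusters were made from these nuclei and most vectors hold few nuclei of each, their levels are a description. Dlx6os1 was detected in 25 of 27 nuclei of cluster 7 (92.6%, 75.7 to 99.1%) and in 1 of 24 of cluster 8 (4.17%, 0.11 to 21.1%), with 60 of 97 (61.9%), 41 of 82 (50.0%) and 30 of 43 (69.8%) in clusters 3, 4 and 6. Its summed level was 719 CPM in cluster 7 and 15.5 CPM in cluster 8. Dlx1 had the same highest and lowest cluster, with 17 of 27 (63.0%, 42.4 to 80.6%) at 267 CPM in cluster 7 and 2 of 24 (8.33%, 1.03 to 27%) at 11.9 CPM in cluster 8. In clusters 3, 4 and 6 it was at 56.0, 110 and 55.1 CPM.

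The other members varied less between the clusters. Dlx5 was found in 14.8% (cluster 7) to 20.6% (cluster 3) of nuclei, with intervals that all overlap, and Dlx6 in 29.2% (cluster 8, 12.6 to 51.1%) to 58.8% (cluster 3, 48.3 to 68.7%). Dlx2 was found in 0 of 24 nuclei of cluster 8 and in 7.41 to 10.3% elsewhere. Cluster 8 thus held Dlx5 (4 of 24) and Dlx6 (7 of 24) with little Dlx1 or Dlx6os1, and its level of Lhx6, a transcription factor of interneurons from the medial ganglionic eminence, was 565 CPM, beside 0 Lhx6 counts in cluster 7. After thinning to equal depth, Dlx6os1 was in 92.3% of nuclei of cluster 7 and 4.17% of cluster 8. Of the 24 nuclei of cluster 8, 8 came from AiE0401h, and of the 27 of cluster 7, 6 came from DLX2.0.

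**Figure D4:**
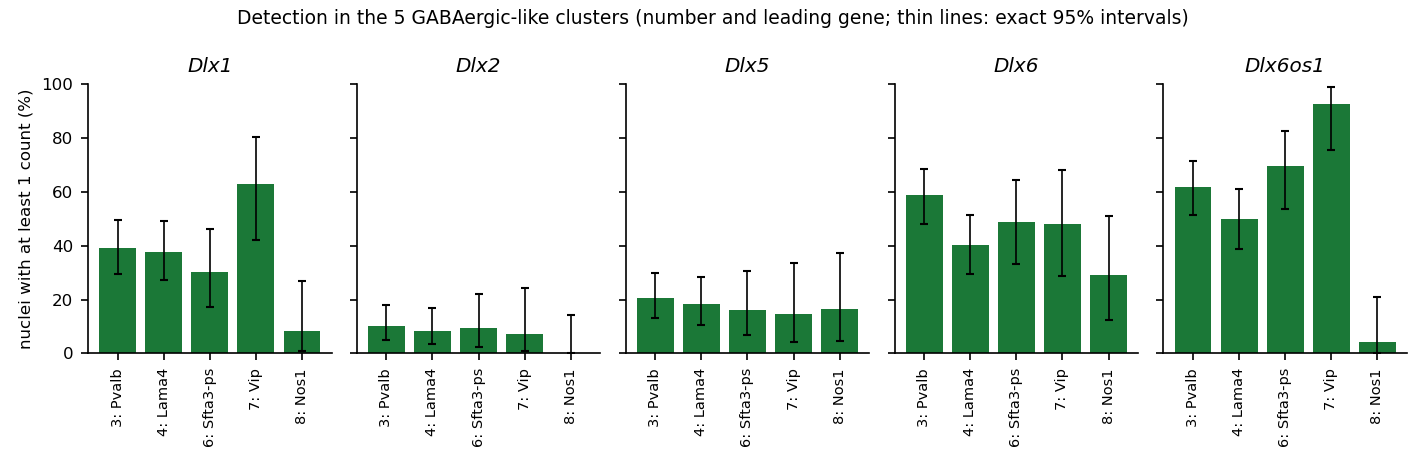
Percent of nuclei with at least 1 count (vertical axis) of each member in the 5 GABAergic-like clusters, labelled by number and a leading gene, with exact 95% intervals as thin lines. Dlx1 and Dlx6os1 were highest in cluster 7 and lowest in cluster 8, while Dlx5 lay between 14.8% and 20.6% in all 5.

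Within single GABAergic-like nuclei, members of a pair were often not seen together. Of 131 nuclei with Dlx6, 90 also had Dlx6os1 (68.7%, 60.0 to 76.5%), against 67 of 142 without Dlx6 (47.2%, 38.8 to 55.7%). Of 101 nuclei with Dlx1, 71 had Dlx6os1 (70.3%, 60.4 to 79.0%), against 86 of 172 without Dlx1 (50.0%, 42.3 to 57.7%). Of 50 nuclei with Dlx5, 26 had Dlx6 (52.0%, 37.4 to 66.3%), against 105 of 223 without Dlx5 (47.1%, 40.4 to 53.9%). Of 101 with Dlx1, 12 had Dlx2 (11.9%, 6.29 to 19.8%), against 11 of 172 without (6.40%, 3.24 to 11.2%). The last pairs of intervals overlap, and nuclei differ in depth and class makeup, so no test was made.

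Dlx6 counts were not confined to nuclei with Dlx6os1, the gene that spans it. Among GABAergic-like nuclei without a Dlx6os1 count, 41 of 116 held Dlx6 (35.3%) at 24.6 CPM, against 90 of 157 with one (57.3%) at 42.5 CPM. The median where present was 15 counts without and 12 counts with Dlx6os1. Among striatal projection neuron-like nuclei without Dlx6os1, 59 of 137 held Dlx6 (43.1%) at 41.4 CPM, against 15 of 24 with it (62.5%) at 60.3 CPM. The medians where present were 20 and 21 counts. In both classes share and level were thus higher with Dlx6os1, which was not tested.

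Across 60 sums of a vector and class, the levels of Dlx5 and Dlx6 varied together most among the members (Pearson r of log2(CPM + 1) of 0.82), and those of Dlx2 and Dlx5 least (0.45). These sums share the classes, so r is a description. Among 13500 genes, those most like Dlx1 were Nxph1 (0.87), Maf (0.84) and Kcnip1 (0.83). Those most like Dlx6 were Gad2 (0.89), Gad1 (0.86) and Samd5 (0.85), and for Dlx6os1 they were Gad2 (0.85), Gad1 (0.83) and Npy (0.80). Dlx5 was followed by Dlx6 (0.82), Gad2 (0.78) and Dlx6os1 (0.77), and Dlx2 by Cort (0.78), Ttc39aos1 (0.76) and Ubap1l (0.75).

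The vectors differed widely in member levels when all 40 nuclei of each were summed. Dlx1 ran from 0 CPM in AiE0779m through a median of 26.3 CPM to 104 CPM in DLX2.0, and Dlx6os1 from 12 CPM in hSyn1 through 65.3 to 200 CPM in AiE0475m. Dlx6 ran from 1.83 CPM in hSyn1 through 19 to 46.6 CPM in AiE0387m, Dlx5 from 0 in AiE0410m through 16.3 to 49.5 CPM in hI56i, and Dlx2 from 0 in 7 vectors through 3.98 to 29 CPM in AiE0078h. The vectors also differed in class makeup. DLX2.0 held 24 GABAergic-like nuclei, AiE0779m held 2 with 21 striatal projection neuron-like ones, and hSyn1, lowest for Dlx6 and Dlx6os1, held 11 with 27 glutamatergic-like ones. The part of class makeup in these levels was not tested.

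The 2 Dlx enhancer vectors, DLX2.0 and hI56i, were set against the other 18 to ask whether nuclei labelled through a Dlx enhancer hold more Dlx RNA. Over all nuclei, Dlx1 was at 104 CPM in DLX2.0 and 26.1 CPM in hI56i, against 0 to 95.7 CPM (median 23.2) in the others. Dlx5 was at 15.4 and 49.5 CPM against 0 to 44.4 CPM, Dlx6 at 18 and 13.7 against 1.83 to 46.6, Dlx6os1 at 159 and 85.0 against 12 to 200 CPM, and Dlx2 at 0 and 0 against 0 to 29 CPM. edgeR called 0 of the 5 members, and 0% of 17806 genes in all (706 at an unadjusted p below 0.05), while DESeq2 called 314. Exact two-sided permutation tests over the 190 ways to choose 2 of 20 vectors gave p = 0.0789 for Dlx1, 0.0947 for Dlx5, 0.158 for Dlx6os1, 0.242 for Dlx2 and 0.632 for Dlx6, unadjusted over 10 such tests here and in GABAergic-like nuclei (190 splits allow 0.00526). DLX2.0 was the highest of the 20 vectors for Dlx1 and hI56i for Dlx5, and all other values of the 2 lay within the range of the other 18. Of the 478 Dlx5 counts of hI56i, 348 came from 1 nucleus below the minimum of 1000 genes, and without the nuclei below it Dlx5 was at 19.1 CPM in hI56i. The log2 fold change of Dlx5 was 1.11 over all nuclei, 0.11 with that minimum, -0.10 without hI56i and -0.63 in library series S40324 alone, where Dlx6os1 turned as well, from 0.87 to -0.31 (edgeR, none called).

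In the nuclei of DLX2.0, members were found only in GABAergic-like ones, 20 of 24, and in 0 of 9 astrocyte-like, 0 of 4 oligodendrocyte-like and 0 of 1 glutamatergic-like nuclei and 0 of 2 below the minimum of genes. In hI56i, members were found in 4 of 4 GABAergic-like, 8 of 12 striatal projection neuron-like, 1 of 6 glutamatergic-like and 0 of 5 oligodendrocyte-like nuclei, and in 1 of 13 below the minimum of genes. Both vectors thus also labelled nuclei in which no member was detected.

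Within GABAergic-like nuclei, Dlx1 was at 202 CPM in DLX2.0 (8 of 24 nuclei) and 168 CPM in hI56i (2 of 4 nuclei), against 19.4 to 132 CPM (median 61.5) in 16 other vectors. The 2 Dlx vectors were the 2 highest of 18 (exact permutation p = 0.00654, the smallest that 153 splits allow). The share of nuclei with Dlx1 was not higher in DLX2.0 than over all GABAergic-like nuclei, where it was 101 of 273 (37%). In DLX2.0, Dlx1 was at 608 CPM in cluster 7 (3 of 6 nuclei), and at 80.2 and 63.0 CPM in clusters 3 and 4. Dlx6os1 was at 307 and 429 CPM against 35.3 to 400 CPM (exact permutation p = 0.0196), Dlx6 at 34.9 and 32.7 against 6.35 to 73.9 (exact permutation p = 0.961), and Dlx5 at 29.8 and 27.5 against 0 to 207 (exact permutation p = 0.575). edgeR called 0 of 5 members, beside 0.00681% of 14695 genes (684 at an unadjusted p below 0.05), with a log2 fold change of 1.33 (SE 0.75, adjusted p = 0.659) for Dlx1 and 0.89 (SE 0.56, adjusted p = 0.659) for Dlx6os1. These rest on 2 vectors, one with 4 such nuclei.

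The makeup of the GABAergic-like nuclei differed between the vectors as well. Cluster 7, where Dlx1 and Dlx6os1 were highest, made up 6 of 24 such nuclei in DLX2.0 (25%, 9.77 to 46.7%) and 1 of 4 in hI56i, against 20 of 245 in the other vectors (8.16%, 5.06 to 12.3%). Without cluster 7, a comparison chosen after seeing the data, Dlx1 was at 68.9 CPM in DLX2.0 and 194 CPM in hI56i (3 nuclei), against a mean of 57.3 ± 36.3 and at most 119 CPM in 15 vectors (exact permutation p = 0.0441). Dlx6os1 turned round, to 51.4 and 8.28 CPM against 148 ± 78.3 (exact permutation p = 0.0588). Cluster 7 was left out because these genes were highest there, and 18 and 3 nuclei remained, so the part of makeup in the result was not tested. In library series S40324 alone, which has 16 of the 24 DLX2.0 nuclei, Dlx1 was at 236 CPM against 21.4 to 182 CPM in 8 other vectors, and Dlx6os1 at 123 CPM against 90.6 to 424 CPM, with a log2 fold change of -1.11 (edgeR adjusted p = 0.904) that turned its direction.

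Dlx2 had 0 counts in all 80 nuclei of the 2 Dlx vectors. The floor of 3 counts is 0.30 CPM in DLX2.0 and 0.31 CPM in hI56i. Nuclei with Dlx2 held a median of 35.5 counts, so a single such nucleus can exceed that floor, which is no limit on the level. Of the other 18 vectors, 13 had Dlx2 counts and 5 had none, so the 2 groups overlap at 0. edgeR gave Dlx2 an adjusted p of 0.722 over all nuclei, while DESeq2 called it (adjusted p = 0.0370), and in GABAergic-like nuclei the values were 0.659 by edgeR and 0.0313 by DESeq2. There 4 of 16 other vectors also had 0 counts, and the exact permutation p was 0.235.

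**Figure D5:**
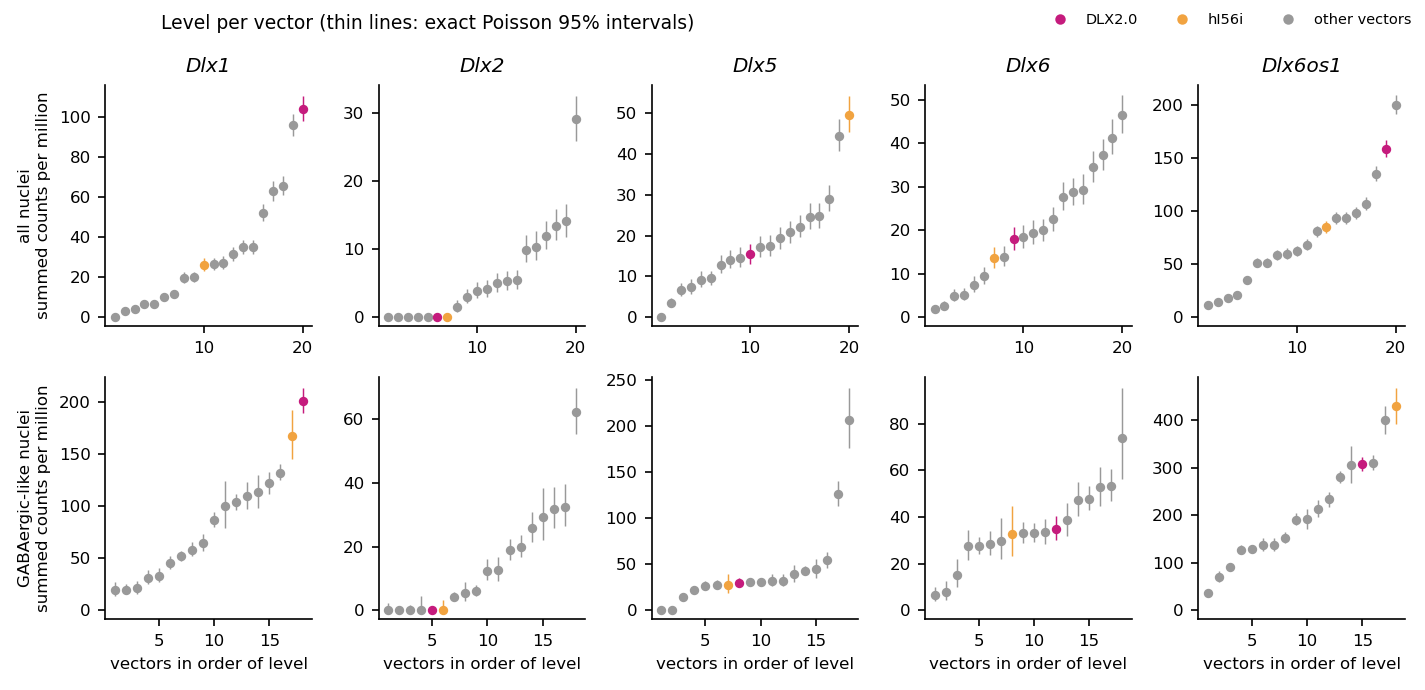
Summed CPM (vertical axes, linear) of each member per vector, in rising order, over all nuclei of 20 vectors (top) and over GABAergic-like nuclei of 18 vectors (bottom), with exact Poisson 95% intervals as thin lines. DLX2.0 (pink) and hI56i (orange) are the 2 highest for Dlx1 in GABAergic-like nuclei, at 202 and 168 CPM, and sit among the other vectors there for Dlx5 and Dlx6. Over all nuclei, DLX2.0 is the highest for Dlx1 and hI56i for Dlx5.

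Levels were also compared between library series, the batch given in the library names. In GABAergic-like nuclei Dlx6os1 was at 271 CPM in series S40324 (95 nuclei), 268 CPM in S40323 (20) and 144 CPM in S40326 (158), with shares of 61.1%, 45.0% and 57%. Dlx1 was at 121, 60.9 and 73.2 CPM, and Dlx6 at 33.3, 25.4 and 35.8 CPM. In the 7 vectors with at least 3 GABAergic-like nuclei in both S40324 and S40326, Dlx6os1 was at 255 CPM ± 128 in S40324 and 133 ± 77.9 in S40326, higher in S40324 in 6 of 7, with AiE0682h the other way (90.6 and 189 CPM). Within the same vectors Dlx1 was at 88.1 CPM ± 54.6 and 84.2 ± 37.7, and Dlx6 at 36.7 ± 22.7 and 36 ± 14.2, each higher in S40324 in 4 of 7. These differences were not tested.

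Other genes of the pathway were taken from 3 lists. Of 19 partner transcription and migration genes of cortical interneurons, 7 were tested against glutamatergic-like nuclei and 4 rose in GABAergic-like ones: Maf, Npas3, Lhx6 and Sox6. Lhx6 and Sox6, both needed for Pvalb and Sst interneurons, were at 214 CPM ± 189 and 168 ± 79.2 over 12 vectors, with 0 counts in all glutamatergic-like sums (edgeR adjusted p = 3.61e-05 and 9.42e-05). Maf, a factor of the same lineage, was at 279 CPM ± 108 against 2.42 ± 3.62 (edgeR adjusted p = 6.29e-06), and Npas3 at 57.4 ± 58.5 against 1.80 ± 3.96 (0.0118). Against striatal projection neuron-like nuclei 9 were tested, of which 7 rose and 1 fell. Lhx6 was at 198 CPM ± 188 and Sox6 at 174 ± 86.0 against 0 in all 12 sums, and Maf at 253 ± 92.9 against 4.70 ± 13.5. Zeb2, which acts in newborn interneurons, was at 150 CPM ± 66.3 against 14.3 ± 29.1 (edgeR adjusted p = 0.00220). The gene that fell, named after its values were seen, was Zfhx3, a transcription factor gene of striatal neurons too, at 3.04 CPM ± 4.97 against 80.2 ± 40.8 (edgeR adjusted p = 0.00145). Between striatal projection neuron-like and glutamatergic-like nuclei 3 were tested, with Zfhx3 called higher and Zeb2 lower. In the 3 comparisons 7, 9 and 3 of the 19 passed the filter, some only through the class where they are high, so these counts are a description. Over all genes, 1.69% rose in the first comparison and 5.34% in the second.

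Of 12 striatal transcription factors, 9 were tested between the 2 inhibitory classes and 5 fell in GABAergic-like nuclei and 0 rose, beside 3.19% of all genes tested that fell and 5.34% that rose. Meis2 was at 7.42 CPM ± 14.6 against 655 ± 228 in striatal projection neuron-like sums (edgeR adjusted p = 5.70e-06), Foxp1 at 26.8 ± 20.1 against 816 ± 240 (1.42e-08), Foxp2 at 26.8 ± 38.4 against 248 ± 94.0 (0.00330) and Six3 at 1.4 ± 3.40 against 43.4 ± 38.9 (0.00228). Against glutamatergic-like nuclei, 5 of 8 tested rose in striatal projection neuron-like ones, among them Six3 (53.5 CPM ± 39.7 against 0), Rarb (107 ± 47.5 against 10.4 ± 18.3) and Bcl11b (225 ± 73.2 against 34 ± 55.1), beside 1.66% of all genes. In GABAergic-like nuclei 2 of 3 tested, Meis2 and Foxp1, fell against glutamatergic-like ones, beside 1.48% of all genes. Some of these striatal genes passed the filter only through the class where they are high, so their counts and directions are a description. Among genes known as partners of Dlx proteins or of the Dlx6os1 RNA, Grip1, which binds Dlx proteins, was at 209 CPM ± 87.6 in GABAergic-like against 29.6 ± 47.8 in glutamatergic-like sums (edgeR adjusted p = 0.0110) and 223 ± 84.3 against 23.1 ± 25.9 in striatal projection neuron-like sums (0.00633). Sox2 was called against striatal projection neuron-like nuclei too (33.2 CPM ± 26.3 against 5.29 ± 15.5, edgeR adjusted p = 0.00411), and Smarca4, Smc1a, Smc3 and Maged1 were called in none of the 3 comparisons between classes. Against the Dlx enhancer vectors, no gene of the 3 lists was called in all nuclei or in GABAergic-like nuclei.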

How the data were processed

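The authors deposited 1 table of raw read counts per gene and nucleus, made by SMART-Seq v4 with no molecular identifiers per the labels' protocols. STAR 2.7.2a and mm10 are named in the submitters' processing notes, while the counting tool, strand setting and annotation were not given in the sources used here. Labels cover 800 of its 2501 columns, and 1701 columns were not used. Gene names were matched for 32158 of 32285 IDs, and spans and exon lengths come from the GENCODE annotation of the same build. The members and all gene lists were chosen with earlier results of these data known.

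Nuclei with at least 1000 genes were clustered with scanpy 1.11.5 and leidenalg 0.10.2 (resolution 1) without the Dlx genes and the pathway lists, and clusters were named from fixed markers. No doublet caller was run. Counts were summed per vector and class with at least 3 nuclei and tested with edgeR 4.0.16 (quasi-likelihood, filterByExpr, adjusted p below 0.05) in R 4.3.3, with the vector as a block since both sums of a pair carry its label. DESeq2 1.42.0 and limma 3.58.1 were alternatives. Exact permutation tests were enumerated in Python 3.11.15 with numpy 2.4.6, and exact intervals used scipy 1.17.1. CPM is a gene's counts in every 1000000 counts of the nuclei summed, intervals are exact 95% intervals, and a floor is 3 counts. Depth is as given in the report. Of the pathway lists, the text names up to 4 called genes per list and comparison, by absolute log2 fold change, and 1 listed gene is not reported here. Parvalbumin-like and somatostatin-like nuclei were not tested against each other, since only 1 vector held 3 of both.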

Additional observations from a re-analysis of the deposited data

Results flagged for a closer look

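Among the 9 vectors compared between striatal projection neuron-like and glutamatergic-like nuclei, 8 groups of member values could be tested for a sample far from the rest and 6 had one. Chance gives about 1 in 20 for values that vary smoothly, but in 5 of the 6 the other 8 vectors were all at 0, where any single value above 0 stands apart. Dlx1 stood apart at 27.3 CPM in striatal projection neuron-like nuclei of AiE0401h and at 47.6 CPM in glutamatergic-like nuclei of hI56i, with the other 8 vectors at 0 in both. Dlx2 stood apart at 0.296 CPM in striatal projection neuron-like nuclei of AiE0078h. Dlx6 stood apart at 4.69 CPM in glutamatergic-like nuclei of AiE0401h. Dlx6os1 stood apart at 188 CPM in striatal projection neuron-like nuclei of AiE0401h and at 201 CPM in glutamatergic-like nuclei of hI56i.

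The 102 nuclei below 1000 genes entered no comparison of classes. Dlx5 was at 20.4 CPM in them (2 nuclei, 503 counts), Dlx6 at 1.10 CPM (1 nucleus, 27 counts) and Dlx6os1 at 25.3 CPM (1 nucleus, 622 counts), above the 0.122 CPM that 3 counts give.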

How the results depend on the processing

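Precision was limited by the 9 or 12 vectors of each comparison and by sums of as few as 3 nuclei. Unless a cause is given, the cause of a change was not tested. Left out one vector at a time, the 3, 2 and 1 members called between classes stayed 3, 2 and 1.

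For GABAergic-like against glutamatergic-like nuclei (3 members, 283 genes called), at least 1 count in place of the filter called 5 members and 484 genes, a minimum of 2000 genes 1 and 96, and leaving out runs with striatal projection neuron-like nuclei 0 and 41, with 6 and 5 vectors left. Over all genes DESeq2 called 1529, limma-trend 578 and library series S40326 alone 98. The pairing is by vector label, and with no replicate block 1 member was called. Between the inhibitory classes (2 members, 786 genes) the counts were 1 member with a minimum of 2000 genes, 1 member and 382 genes in S40326 alone, and 2779, 1413 and 1635 genes with DESeq2, at least 1 count and limma-trend. For striatal projection neuron-like against glutamatergic-like nuclei (1 member, 234 genes), 3 members were called with at least 1 count, 2 at resolution 2, and 0 with a minimum of 2000 genes, classes by own markers, at least 5 nuclei, thinned counts or S40326 alone. The genes called were 1066 with DESeq2, 400 with at least 1 count, 438 with limma-trend, 75 with a minimum of 2000 genes, 130 with at least 5 nuclei and 54 in S40326 alone. Removing the block changed no other call of a member.

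For the Dlx enhancer vectors over all nuclei (0 genes called), DESeq2 called 1 member and 314 genes, at least 1 count 24 genes, mean CPM 17, a minimum of 1000 genes (chosen after seeing the data) 1, and leaving out either Dlx vector 20 to 30. In GABAergic-like nuclei (1 gene called), DESeq2 called 1 member and 354 genes, at least 1 count 162 genes, mean CPM 43, a minimum of 500 genes 0, S40324 alone 0, and leaving out either Dlx vector 0 to 191. Without cluster 7, chosen after seeing the data, the mean difference of Dlx6os1 turned to -118 CPM. Series S40324 alone was not run between classes, since too few vectors remained.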
